A study of Mus musculus with 8 samples.

Results

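The genes described here are the enzymes that write and erase DNA methylation, together with the cofactors that guide them: Dnmt1, Dnmt3a, Dnmt3b, Dnmt3l, Uhrf1, Tet1, Tet2, Tet3, Zfp57 and Trim28. They were taken by gene name from the expression table, in which all 10 were found among 18094 genes. All 10 passed the filter of a mean of at least 10 normalized read counts, as did 15767 genes in all. RNA-seq libraries came from 4 groups with 2 libraries each: WT mESCs and CTCF-K20R mESCs on day 0 and, on day 4 after differentiation, WT EBs and CTCF-K20R EBs. The cells are E14Tg2A, a mouse embryonic stem cell line, and every group derives from it. In the CTCF-K20R cells the endogenous CTCF gene was edited with CRISPR/Cas9 so that lysine 20 of the protein became arginine, while WT cells kept the lysine. The mESCs grew on inactivated mouse embryo fibroblasts with serum, LIF and the 2i inhibitors, and the EBs formed from them in hanging drops in serum without LIF. The study describes the 2 libraries of a group as biological replicates from independent experiments, and the sources used here do not say whether the CTCF-K20R libraries come from 1 clone or several. The effect of the mutation and that of a clone therefore cannot be told apart.

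In mammals, DNA methylation sits mostly on the cytosine of CG dinucleotides. DNMT3A and DNMT3B place it on unmethylated DNA, DNMT3L stimulates them without being an active enzyme itself, and DNMT1 copies it after replication at sites that UHRF1 recognises as hemimethylated. The TET enzymes oxidise methylcytosine, which starts its removal. ZFP57 is a zinc finger protein that binds methylated imprinting control regions, and TRIM28 (also called KAP1) is the corepressor it recruits. As mouse pluripotent cells leave the naive state, Dnmt3b is a well known gene to rise, while Tet2 and Zfp57 are known as genes of the naive state.

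The libraries summed to between 19412659 and 21311513 normalized read counts, and the level worth 3 reads lay between 2.44 and 3.44 normalized counts, far below each of the 10 genes. The 2 WT libraries of each day differed by less than the sampling noise, with a mean squared difference of 0.313 times that of independently drawn reads on day 0 and 0.277 times on day 4, against 4 and 4.36 times in the CTCF-K20R pairs. Although described as independent, each WT pair was therefore averaged and counted as 1 sample, and 6 samples entered the limma fit. The spread in this fit comes from the CTCF-K20R pairs alone, with 2 residual degrees of freedom, and the change of WT cells between the days has no replicate check. Summed pluripotency markers (Pou5f1, Sox2, Nanog, Zfp42 and Esrrb) ranged from 84801 to 87059 in the 4 mESC libraries, from 15298 to 15407 in WT EBs and from 31170 to 31883 in CTCF-K20R EBs. Pou5f1 held most of the EB sums, with means of 12646 in WT EBs and 21765 in CTCF-K20R EBs. In the same order, Sox2 averaged 613 and 3216, Nanog 1700 and 5359, Zfp42 321 and 725, and Esrrb 72.55 and 460. Summed early mesoderm markers (T, Mixl1, Eomes and Mesp1) ranged from 36222 to 36352 in WT EBs and from 2333 to 2428 in CTCF-K20R EBs. Endoderm markers (Sox17, Foxa2 and Afp) summed to 4122 and 4157 against 95.25 and 84.44. Neural ectoderm markers (Sox1, Pax6 and Nes) summed to 1935 and 1901 against 2645 and 2676.5. Nes held most of these sums, with means of 1902 in WT EBs and 2521.5 in CTCF-K20R EBs. Sox1 averaged 1.64, under the 3-read level, against 46.93, and Pax6 14.2 against 92.21. Primed epiblast markers summed to 7727 and 7719 against 9640 and 9666. Of these, Pou3f1 averaged 256 in WT EBs and 2977 in CTCF-K20R EBs, Fgf5 3759 and 3257, and Otx2 3709 and 3419. The 2 EB groups thus differed in marker RNA, and the part of this in the results below was not tested. In such bulk samples fewer cells of a type and less RNA per cell cannot be told apart. Of 7 fibroblast markers, 4 were at or under the 3-read level in every mESC library with Dcn and Lum at 0 in WT mESCs. The list summed to 511 and 501 in WT mESCs and 160 and 150 in CTCF-K20R mESCs, mostly from Thy1 with means of 462 and 104, and to 505 and 487 in WT EBs and 745 and 680 in CTCF-K20R EBs. In EBs the list was mixed. Thy1 averaged 224 in WT against 553 in CTCF-K20R, Col3a1 3.83 against 42.64 and Dcn 0.965 against 15.18. Col1a1 went the other way at 155 against 66.52, as did Col1a2 at 60.59 against 34.93 and Postn at 51.77 against 0. The part of these differences in the results was not tested.

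On day 4, the de novo arm stood higher in CTCF-K20R EBs than in WT EBs, Dnmt1 and Uhrf1 of the maintenance arm did not pass the test, and the imprint factor Zfp57 was lower. Against WT EBs, Dnmt3b, Dnmt3l and Tet1 were higher and Zfp57 was lower. Dnmt3a, Tet2 and Trim28 were higher by less than the fold of 2 set for a call. By the DEG rule, an adjusted p under 0.05 with an absolute log2 fold change above 1, 3 of the 10 genes were higher, where 6.89% of all genes tested were called higher, and 1 was lower, where 8.65% were called lower. By the adjusted p alone, 7 of the 10 differed, against 40.1% of all genes. Their median log2 fold change was 0.50, and that of all genes tested was 0.01.

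**Figure D1:**
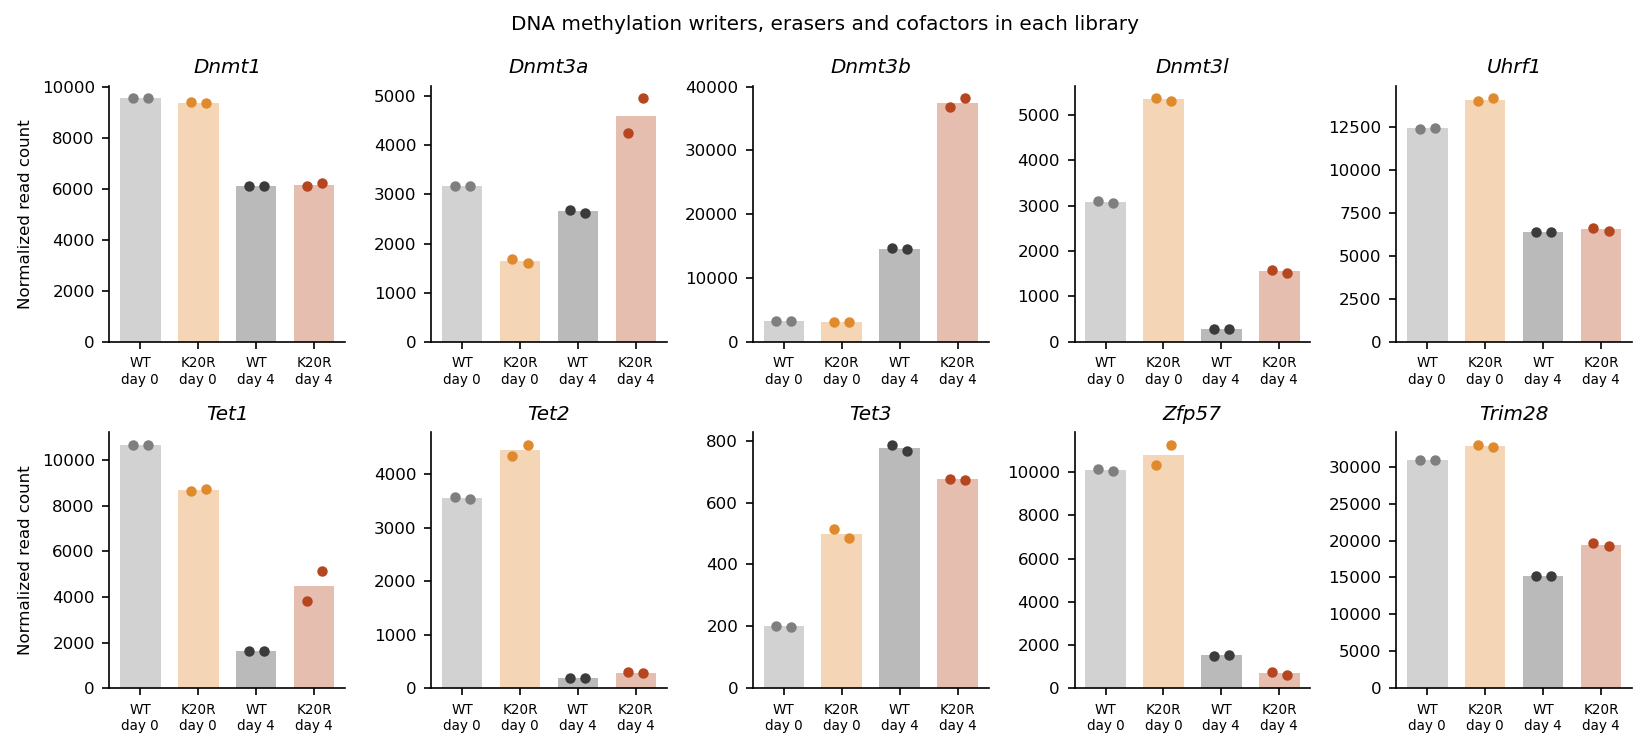
Normalized read counts (vertical axes, each from 0) of the 10 genes in the 8 libraries. Points are libraries and bars are means of the 2 libraries of a group, with K20R standing for CTCF-K20R. Dnmt3b, Dnmt3l, Tet1 and Dnmt3a stand higher in CTCF-K20R EBs than in WT EBs, and Dnmt1 and Uhrf1 stand at similar heights in both.

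Dnmt3b, the de novo methyltransferase of the early epiblast, lies at chr2:153649450-153687730 on the plus strand (GRCm38, as for all positions below). The WT EBs held 14624 and 14619.7 normalized counts and the CTCF-K20R EBs held 36756 and 38179.8. No library of one genotype came near the other, and the log2 fold change was 1.36 ± 0.037 (SE, adjusted p = 2.84e-05, limma) or 2.56-fold. On day 0 the same gene stood at 3212 and 3281 in WT mESCs and at 3108 and 3120.2 in CTCF-K20R mESCs, a log2 fold change of -0.06 ± 0.037 (adjusted p = 0.33) with a 95% interval from -0.15 to 0.03. The difference between the genotypes was thus present in the EBs and was not detected before differentiation, and the test of that contrast between days gave 1.42 ± 0.052 (adjusted p = 0.000144).

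Dnmt3l, the catalytically inactive stimulator of the DNMT3 enzymes, lies at chr10:78041947-78063622 on the plus strand. The WT EBs held 276 and 272 normalized counts and the CTCF-K20R EBs held 1579 and 1524. This was the largest ratio among the 10 genes on day 4, a log2 fold change of 2.50 ± 0.054 (adjusted p = 1.82e-05) or 5.65-fold. Unlike Dnmt3b, Dnmt3l was already higher before differentiation, at 3098 and 3065 in WT mESCs and 5362 and 5309 in CTCF-K20R mESCs. That difference was 0.79 ± 0.054 on the log2 scale (adjusted p = 0.00161), past the adjusted p and short of the fold of 2, and the ratio grew by 1.71 ± 0.077 from day 0 to day 4 (adjusted p = 0.000229). Of the 2988 exon bases of Dnmt3l, 67 are shared with Aire on the opposite strand, which averaged 798 normalized counts, and the use of strand in the counting is not given in the sources used here.

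Dnmt3a, the de novo methyltransferase with the broader range in later tissues, lies at chr12:3806007-3914443 on the plus strand. It passed the adjusted p in opposite directions on the 2 days, which no other member did. In mESCs it read 3170.4 and 3170.7 in WT against 1689.7 and 1596 in CTCF-K20R, a log2 fold change of -0.95 ± 0.099 (adjusted p = 0.00488). In EBs it read 2685 and 2624.5 in WT against 4246 and 4960.4 in CTCF-K20R, a log2 fold change of 0.79 ± 0.099 (adjusted p = 0.00249). Both differences fell short of the fold of 2, and their difference passed it at 1.74 ± 0.140 (adjusted p = 0.00115). Gene-level values do not separate the long and the short form of DNMT3A, which start at different promoters.

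The 250 bases before the annotated RefSeq start (GRCm38.p6) are shown for 4 genes that were called on one of the days, with CG dinucleotides, the targets of these enzymes, in capitals. The windows are given 5′ to 3′ on the strand of the gene, at chr2:153649199-153649448 (plus) for Dnmt3b, chr10:78049592-78049841 (plus) for the second of the 3 Dnmt3l starts, chr6:83441679-83441928 (minus) for Tet3, and chr17:37000913-37001162 (plus) for the most upstream of the 3 Zfp57 starts.
Dnmt3b: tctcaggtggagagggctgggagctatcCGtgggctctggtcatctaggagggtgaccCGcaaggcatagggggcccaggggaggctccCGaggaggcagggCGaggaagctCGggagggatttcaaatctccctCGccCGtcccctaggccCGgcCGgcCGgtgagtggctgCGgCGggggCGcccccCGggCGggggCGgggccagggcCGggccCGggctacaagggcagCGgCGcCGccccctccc
Dnmt3l: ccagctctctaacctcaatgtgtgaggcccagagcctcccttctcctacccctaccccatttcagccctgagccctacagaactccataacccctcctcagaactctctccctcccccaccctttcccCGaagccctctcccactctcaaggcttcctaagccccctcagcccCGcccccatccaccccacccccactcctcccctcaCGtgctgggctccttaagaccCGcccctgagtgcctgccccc
Tet3: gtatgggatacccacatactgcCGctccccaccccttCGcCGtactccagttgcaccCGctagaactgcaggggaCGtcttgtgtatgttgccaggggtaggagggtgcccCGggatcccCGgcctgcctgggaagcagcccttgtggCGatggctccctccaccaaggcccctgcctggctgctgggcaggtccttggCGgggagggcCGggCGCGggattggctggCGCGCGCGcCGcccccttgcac
Zfp57: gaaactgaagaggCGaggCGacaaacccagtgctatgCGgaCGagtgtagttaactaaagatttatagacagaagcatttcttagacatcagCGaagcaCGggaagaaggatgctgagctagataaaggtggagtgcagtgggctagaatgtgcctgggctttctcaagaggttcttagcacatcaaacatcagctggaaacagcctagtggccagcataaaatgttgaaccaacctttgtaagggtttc

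The Dnmt3b window holds 21 CG and the Tet3 window 17, more than 83.7% and 76.5% of the 32851 windows of this length in the RefSeq table, whose median was 6. The Dnmt3l window holds 4 CG and the Zfp57 window 6, and the other starts of these genes hold 3 to 7. The genes that were higher in CTCF-K20R EBs thus included one with a CG-dense window and one with a CG-poor window. The window with the most CG among the 19 starts of the 10 genes belongs to Tet2, with 51, more than 99.9% of all windows. The GC box CCGCCC, searched on both strands, occurs 3 times in the Dnmt3b window, 2 times in the Dnmt3l window, 1 time in that of Tet3 and not in that of Zfp57, and 32.7% of all windows hold it. The TATA box letters TATAAA, searched on both strands, occur 1 time in the Zfp57 window. That match is on the strand opposite to the gene, and 12.4% of all windows hold these letters on either strand. The CCAAT box CCAAT, also searched on both strands, is in the Tet3 window 1 time, on the strand opposite to the gene. None of the other windows shown holds it, where 33.8% of all windows do. AGGNGGC, a short stretch of the CTCF motif searched on both strands, occurs 3 times in the Dnmt3b window, once each in those of Dnmt3l and Tet3 and not in that of Zfp57. It is in 11 of the 19 windows of the 10 genes, some of which overlap or are rich in G and C, and in 25% of all windows. The libraries measure RNA, so these matches describe the letters and say nothing of binding or methylation.

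Dnmt1 and Uhrf1, which keep methylation through replication, lie at chr9:20907209-20959888 (minus strand) and chr17:56303321-56323486 (plus strand). Dnmt1 read 6092 and 6098 in WT EBs against 6092 and 6211 in CTCF-K20R EBs, so the groups overlapped. Its log2 fold change was 0.01 ± 0.034 (adjusted p = 0.787), with a 95% interval from -0.07 to 0.10. On day 0 it read 9543 and 9553 in WT against 9405 and 9361 in CTCF-K20R, a log2 fold change of -0.03 ± 0.034 (adjusted p = 0.665). Uhrf1 read 6372.5 and 6391 in WT EBs against 6637 and 6437 in CTCF-K20R EBs, which gave a log2 fold change of 0.03 ± 0.036 (adjusted p = 0.485) with an interval from -0.05 to 0.12. The signs of these small day 4 values turned when the libraries were scaled to equal totals or quantile normalized, to between -0.07 and -0.13. After quantile normalization Dnmt1 was lower in CTCF-K20R EBs past the adjusted p (-0.13, adjusted p = 0.0241), short of the fold of 2. On day 0 Uhrf1 was higher in CTCF-K20R mESCs, at 13964 and 14153 against 12376 and 12447, a 1.13-fold difference (adjusted p = 0.0287).

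Tet1, the main TET enzyme of mESCs, lies at chr10:62804570-62908996 on the minus strand. In EBs it read 1656 and 1639 in WT against 3835 and 5142 in CTCF-K20R. The 2 CTCF-K20R libraries lay apart from each other, and the lower of them was still above both WT libraries. The log2 fold change of CTCF-K20R over WT was 1.43 ± 0.160 (adjusted p = 0.0017, limma) or 2.69-fold. On day 0 Tet1 read 10671 and 10666.5 in WT against 8663 and 8749 in CTCF-K20R, a log2 fold change of -0.29 ± 0.160 (adjusted p = 0.278), and the contrast between days was 1.72 ± 0.227 (adjusted p = 0.00519).

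Tet2 lies at chr3:133463679-133545139 on the minus strand. In EBs it was low in both genotypes, at 186 and 185 in WT and 297 and 284 in CTCF-K20R, a log2 fold change of 0.64 ± 0.075 (adjusted p = 0.00196). In mESCs it read 3572 and 3536 in WT against 4346.5 and 4555 in CTCF-K20R, a log2 fold change of 0.32 ± 0.075 (adjusted p = 0.0432). The contrast between days was 0.32 ± 0.106 and did not pass the test (adjusted p = 0.0791).

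Tet3, the TET enzyme known from the oocyte and from differentiating cells, lies at chr6:83362373-83459084 on the minus strand and was the least abundant member in mESCs. It was the 1 member called on day 0, where 1.19% of all genes were called higher and 2.60% lower, and where 5 of the 10 members passed the adjusted p alone, against 15.4% of all genes. It read 202 and 198 in WT mESCs against 515 and 484 in CTCF-K20R mESCs, a log2 fold change of 1.31 ± 0.098 (adjusted p = 0.00198) or 2.49-fold. On day 4 it read 787 and 766 in WT against 677 and 672.5 in CTCF-K20R, a log2 fold change of -0.20 ± 0.098 (adjusted p = 0.159). The contrast between days was -1.52 ± 0.139 (adjusted p = 0.00166). The day 0 value stayed at 1.31 but its adjusted p passed 0.05 when either CTCF-K20R EB library was left out (0.0599 without replicate 1, 0.0602 without replicate 2), with the mESC libraries fitted alone (0.0545) and without the mean-variance trend (0.0529). The day 0 differences that passed the adjusted p alone were likewise lost under some of the 18 alternatives, at whose highest the adjusted p was 0.0716 for Dnmt3a, 0.0589 for Dnmt3l, 0.171 for Tet2 and 0.248 for Uhrf1.

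**Figure D2:**
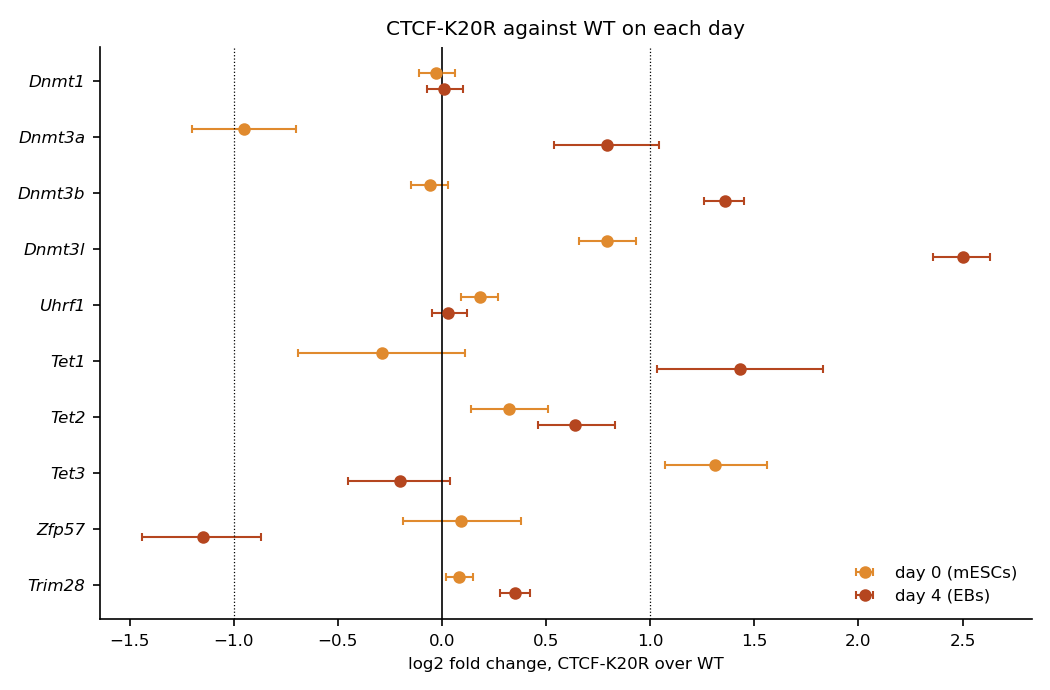
The log2 fold change of CTCF-K20R over WT (horizontal axis) for the 10 genes, in mESCs on day 0 and in EBs on day 4. Points are estimates of the limma fit over 6 samples, bars are 95% intervals and dotted lines mark a fold of 2. Dnmt3a moves from -0.95 to 0.79, and Tet3 from 1.31 to -0.20, while Dnmt1 lies at 0 on both days within its intervals.

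Zfp57, at chr17:37001163-37010635 on the plus strand, read 1513 and 1534 in WT EBs against 747 and 626 in CTCF-K20R EBs. It was the 1 member called lower, by 1.15 ± 0.113 on the log2 scale (adjusted p = 0.00106), at 0.449 times the WT level. On day 0 it read 10126 and 10067 in WT against 10319 and 11261 in CTCF-K20R, a log2 fold change of 0.09 ± 0.113 (adjusted p = 0.619), and the contrast between days was -1.25 ± 0.160 (adjusted p = 0.00474). Its corepressor Trim28, at chr7:12999114-13031035 on the plus strand, moved the other way on day 4, at 15227 and 15224.5 in WT EBs against 19612 and 19269 in CTCF-K20R EBs. That difference of 0.35 ± 0.027 (adjusted p = 0.000496) was small, 1.28-fold, and on day 0 the values were 30928 and 30968 against 32976 and 32652 (adjusted p = 0.099). The ratio of Zfp57 to Trim28 counts was 0.0994 and 0.101 in WT EBs and 0.0381 and 0.0325 in CTCF-K20R EBs, and lay between 0.313 and 0.345 in all mESC libraries.

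Across both days, 6 of the 10 genes were called in the contrast between days. Dnmt3a, Dnmt3b, Dnmt3l and Tet1 had a genotype difference that was more positive on day 4, where 6.84% of all genes were called in this direction, and Tet3 and Zfp57 one that was more negative, where 6.04% were. By the adjusted p alone 7 of the 10 differed, with Trim28 added at 0.27 ± 0.039 (adjusted p = 0.00694), against 26.6% of all genes. Without the mean-variance trend the calls of Tet1 and Zfp57 were lost (adjusted p = 0.0595 and 0.0579), and the adjusted p of Trim28 reached 0.175 at its highest over the alternatives.

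Each genotype was then followed over the step from mESCs to EBs. How far each genotype left the naive state was not tested. In CTCF-K20R cells, Dnmt3b rose 12-fold (log2 fold change 3.59 ± 0.030, adjusted p = 7.07e-07) and Dnmt3a 2.79-fold (1.48 ± 0.081, adjusted p = 6.04e-05). Dnmt3l and Uhrf1 fell to 0.291 and 0.465 times the mESC level. Tet2 and Zfp57 fell furthest, to 0.0654 and 0.0636 times the mESC level. By the DEG rule 2 members were higher, against 14.5% of all genes, and 4 were lower, against 11.6%. By the adjusted p alone all 10 differed, against 58.5% of all genes, and Tet1 missed the fold of 2 narrowly with a log2 fold change of -0.97 ± 0.131 (adjusted p = 0.0017). Without replicate 2 of the CTCF-K20R EBs this value was -1.18 and Tet1 was called.

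In WT cells the same step has 1 sample on each day and is given as values with no test. Dnmt3b in EBs stood at 450% of the mESC level and Tet3 at 388%. Tet2 stood at 5.22%, Dnmt3l at 8.89%, Zfp57 at 15.1%, Tet1 at 15.4% and Trim28 at 49.2%. These 7 genes lay past a fold of 2, 2 of them higher, where 18.9% of all genes were, and 5 lower, where 16.3% were. Trim28 was within the fold of 2 when the libraries were scaled to equal totals, at -0.91, or quantile normalized, at -0.95. Dnmt3a stood at 83.7%, Dnmt1 at 63.8% and Uhrf1 at 51.4%.

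Set side by side, the genotypes shared the direction of this step for 9 of the 10 genes. Dnmt3b reached 1203% of its day 0 level in CTCF-K20R cells against 450% in WT. Dnmt3l kept 29.1% against 8.89%, and Tet1 51.6% against 15.4%. Tet3 reached 135% against 388%, and Zfp57 kept 6.37% against 15.1%. Dnmt3a was the exception, at 280% in CTCF-K20R cells against 83.7% in WT. Tet2 kept 6.52% against 5.22%, Uhrf1 46.5% against 51.4% and Dnmt1 65.6% against 63.8%, and for these 3 genes the contrast between days did not pass the test (adjusted p = 0.0791, 0.0892 and 0.596).

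**Figure D3:**
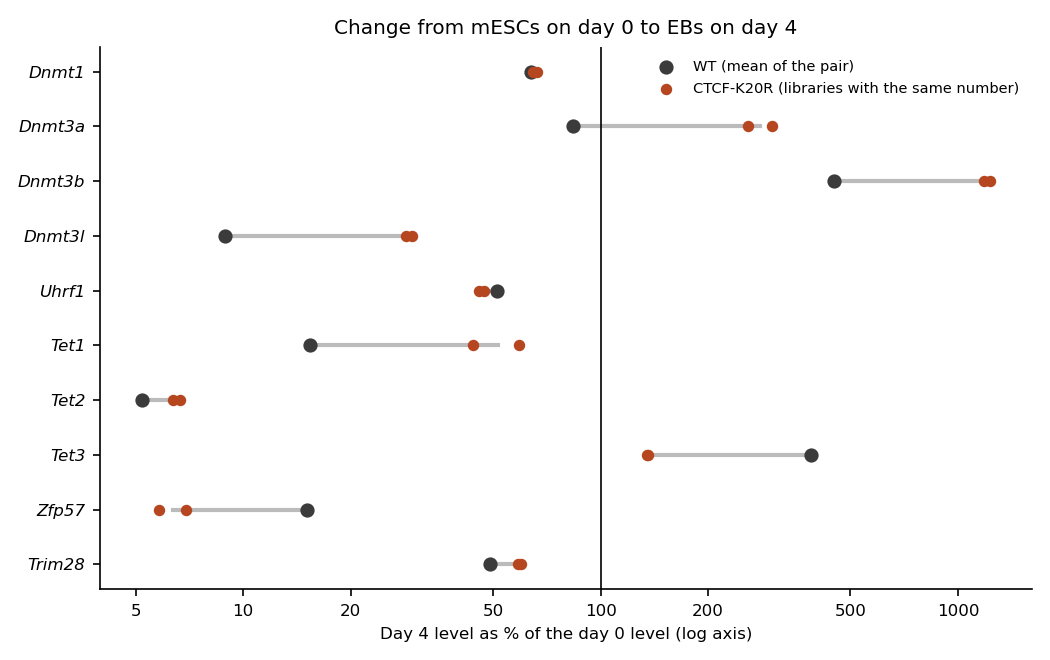
The EB level on day 4 as a percentage of the mESC level on day 0 (log axis, 100% marked) for the 10 genes. Dark points are WT means, red points are the CTCF-K20R libraries paired by replicate number for display, and grey lines join the group values. Dnmt3a lies on opposite sides of 100% in the 2 genotypes, and the Tet2, Dnmt1, Uhrf1 and Trim28 points of both genotypes lie close together.

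To compare levels between genes, normalized counts were divided by the length of the longest annotated coding transcript and are given per kb. In WT mESCs the order from the top was Trim28 (9537 per kb), Zfp57 (3888), Uhrf1 (3461), Dnmt3l (1691), Dnmt1 (1627), Dnmt3b (752), Tet1 (742 to 743 over its libraries), Tet2 (387), Dnmt3a (327) and Tet3 (18.4). Dnmt3b and Tet1 differed by less than the spread of the Dnmt3b libraries, from 744 to 760 per kb. No neighbours in this order overlapped in range, but the 2 WT libraries count as 1 sample, so these ranges are not a replicate spread. The order in CTCF-K20R mESCs was the same, from Trim28 (10112 per kb) to Tet3 (45.8). In WT EBs Trim28 led (4692 per kb) with Dnmt3b behind it (3385), and Tet2 was last (20.2). In CTCF-K20R EBs Dnmt3b led, at 8508 to 8838 per kb over its libraries, above Trim28 at 5938 to 6044. In these EBs Tet1 (267 to 358 per kb) and Zfp57 (241 to 288) overlapped. With the median length of the basic transcripts in place of the longest, neighbouring ranks changed for Dnmt3a, Tet1, Tet2 and Zfp57 only, so those orders depend on the transcript taken.

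**Figure D4:**
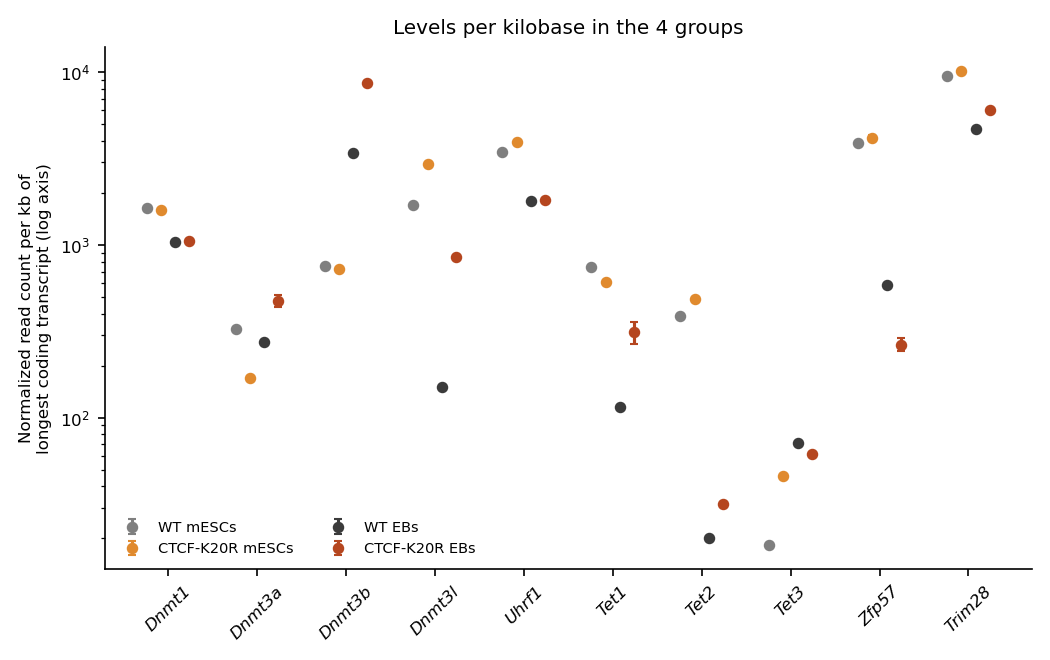
Normalized read counts per kb of the longest coding transcript (log axis) for the 10 genes in the 4 groups. Points are means of 2 libraries and bars run from the lower to the higher library, often within the point. Dnmt3b moves from the middle of the order in mESCs to the top in CTCF-K20R EBs.

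Within families the makeup changed with the day and with the genotype. Dnmt3b held 69.4% and 69.9% of the summed Dnmt3a and Dnmt3b level per kb in WT mESCs, and 80.5% and 81.4% in CTCF-K20R mESCs. In EBs it held 92.4% and 92.6% in WT and 95.1% and 94.5% in CTCF-K20R. The summed level per kb of both genes was 1071 and 1087 in WT mESCs, 894 and 887 in CTCF-K20R mESCs, 3662 and 3655 in WT EBs, and 8947 and 9350 in CTCF-K20R EBs.

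The 3 TET genes summed to a similar level per kb in all mESC libraries, 1150 and 1146 in WT against 1124 and 1149 in CTCF-K20R, although their makeup differed. Tet1 held 64.6% and 64.8% of it in WT mESCs and 53.7% and 53% in CTCF-K20R mESCs, where Tet2 held 42.1% and 43.2% against 33.8% and 33.6%. In EBs the sum was 208 and 204 in WT and 361 and 450 in CTCF-K20R. Tet3 made up 34.7% and 34.4% of it in WT EBs and 17.2% and 13.7% in CTCF-K20R EBs, while Tet1 made up 55.5% and 55.8% against 73.9% and 79.4%. The ratio of the Dnmt3a and Dnmt3b sum to the TET sum was between 0.772 and 0.949 in all mESC libraries, 17.6 and 17.9 in WT EBs, and 24.8 and 20.8 in CTCF-K20R EBs. These shares are descriptions of RNA, and no test was run on them. The sums, shares and ratios of both families use the longest transcript only and depend on that choice. With the median length, Dnmt3a in WT mESCs stood at 448 per kb in place of 327. Likewise Tet3 in WT EBs stood at 92.15 in place of 71.19.

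Partner genes from 6 lists, 48 of them tested, placed the members in their pathway. On day 4, 2 were called higher and 2 lower, where 6.89% and 8.65% of all genes were, so neither share exceeded that of all genes. By the adjusted p alone 18 were higher and 10 lower, against 40.1% of all genes in either direction. Their median log2 fold change was 0.06, and that of all genes tested 0.01. Of the 6 maintenance partners, Uhrf2, the paralog of Uhrf1, was lower in CTCF-K20R EBs (2390 and 2385 in WT, 1032 and 987 in CTCF-K20R), with a log2 fold change of -1.24 ± 0.066 (adjusted p = 0.000158). Hells, a chromatin remodeller needed for methylation of repeats, was higher (4426 and 4403 in WT, 9879 and 9285 in CTCF-K20R), with a log2 fold change of 1.12 ± 0.051 (adjusted p = 0.000109). So the partners of the maintenance enzymes moved in both directions, where Dnmt1 and Uhrf1 themselves did not pass the test.

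Among the 17 TET regulators and base excision genes, 1 was called higher and 1 lower on day 4, close to the shares of 6.89% and 8.65% among all genes, and the list's median was -0.07. Apex1, the endonuclease that cuts abasic sites in base excision repair, read 5257 and 5193 in WT EBs against 2268 and 2310 in CTCF-K20R EBs, which gave a log2 fold change of -1.19 ± 0.051 (adjusted p = 8.86e-05). Gadd45a, a stress gene linked to demethylation, read 252 and 261 against 605 and 553, a log2 fold change of 1.17 ± 0.157 (adjusted p = 0.00319). None of the 6 de novo regulators, the 6 tested ZFP57 and TRIM28 partners, the 8 methyl-CpG readers and the 5 methyl donor enzymes was called on day 4, and by the adjusted p alone 3, 4, 3 and 3 of them differed. All 6 ZFP57 and TRIM28 partners had a log2 fold change above 0, with a median of 0.20, as had 7987 of the 15767 genes tested. The 2 smallest values were 0.01 and 0.06 and did not pass the test (adjusted p = 0.923 and 0.202, limma). Equal totals moved the median of all genes from 0.01 to -0.095, so such small signs may turn with the scaling.

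On day 0, none of the 48 partner genes was called higher and 2 were called lower, both in the base excision list, where 1.19% and 2.60% of all genes were. By the adjusted p alone 4 were higher and 10 lower, against 15.4% of all genes in either direction. Apex1 was already lower in CTCF-K20R mESCs (4099 and 4128 in WT, 1852 and 1928 in CTCF-K20R), with a log2 fold change of -1.12 ± 0.051 (adjusted p = 0.000958). Neil2, a DNA glycosylase, read 235 and 236 in WT against 86 and 98.9 in CTCF-K20R, a log2 fold change of -1.34 ± 0.212 (adjusted p = 0.0156). No partner was called when either CTCF-K20R EB library was left out or without the mean-variance trend, and 1 was called with the mESC libraries fitted alone or without replicate 1 of the CTCF-K20R mESCs.

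In the contrast between days, 4 of the 48 were called, each with a more positive genotype difference on day 4, in which direction 6.84% of all genes were called. They were Hells (1.01 ± 0.072, adjusted p = 0.00084), Neil2 (2.31 ± 0.300, adjusted p = 0.00501), Gadd45a (2.07 ± 0.222, adjusted p = 0.00268) and Atf7ip, a partner of the histone methyltransferase SETDB1 (1.55 ± 0.245, adjusted p = 0.00921). From CTCF-K20R mESCs to EBs, 2 partner genes were called higher and 4 lower, shares below the 14.5% and 11.6% of all genes. Prdm14, which represses de novo methyltransferases in naive cells, fell by 6.82 ± 0.256 on the log2 scale (adjusted p = 1.81e-05), from 747 and 724 to 6.86 and 4.37, and it read 828 and 822 in WT mESCs against 11.5 and 10.5 in WT EBs. Cxxc4, whose product lowers TET2, was at or under the 3-read level in CTCF-K20R mESCs and at 86.4 and 84.8 in the EBs of this genotype, at least 25.9-fold higher than that level. Gadd45b fell by 2.49 ± 0.143 (adjusted p = 7.42e-05) and Zbtb38, a methyl-CpG binding zinc finger gene, fell by 2.12 ± 0.112 (adjusted p = 5.39e-05).

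**Figure D5:**
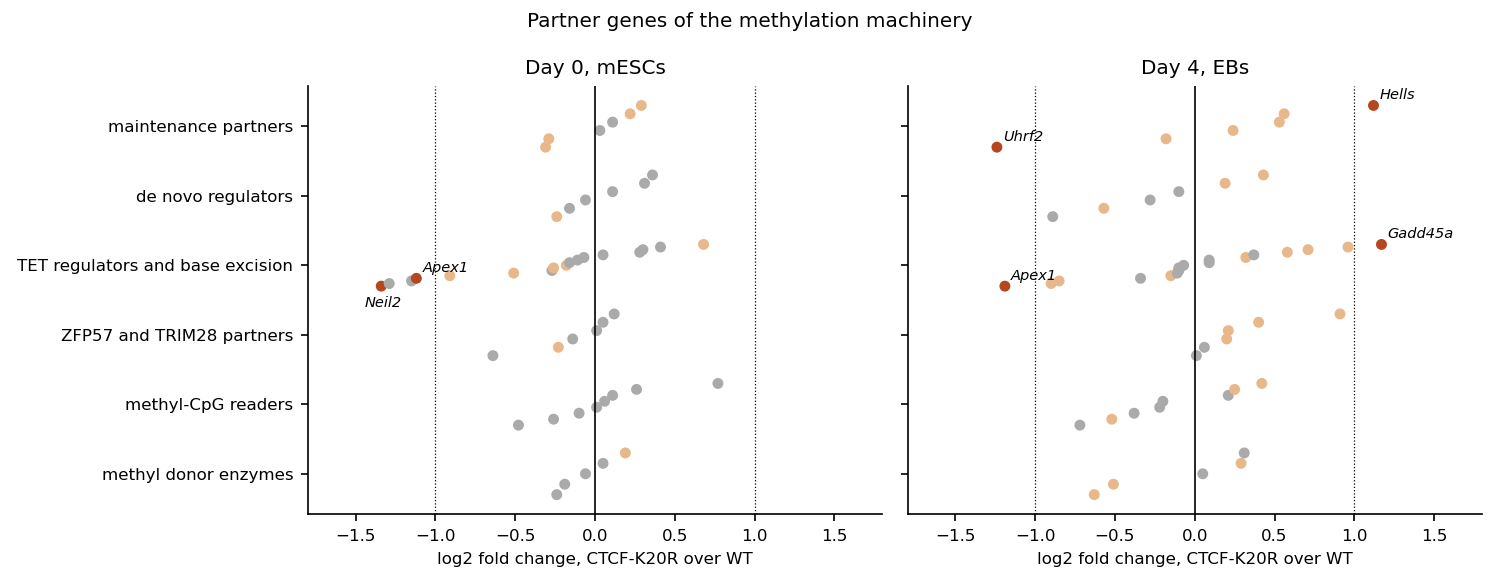
The log2 fold change of CTCF-K20R over WT (horizontal axes) for 48 partner genes in 6 lists, on day 0 and on day 4. Each point is a gene, dark red where it passed the DEG rule, light orange where it passed the adjusted p alone and grey otherwise, and dotted lines mark a fold of 2. Apex1 is low on both days, and Uhrf2 and Hells lie on opposite sides of 0 on day 4.

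The genes that surround the members were read for a shift of a whole region, with the 20 nearest genes on each side whose mean normalized count was 50 or more. On day 4 the median log2 fold change of these neighbours lay between -0.15 (Tet3 and Trim28) and 0.21 (Dnmt3a, with 26 neighbours near the end of its chromosome). Around Dnmt3b, between chr2:152316334 and chr2:155473894, the 40 neighbours had a median of -0.08 on day 4, with 18 of 40 higher, and of 0.12 on day 0, with 28 of 40 higher. Around Dnmt3l and Tet1 the day 4 medians were 0.12 and 0.02, and around Zfp57 -0.01. By the DEG rule, 7 of the 40 neighbours of Dnmt3b, 8 of 40 at Tet1, 5 of 40 at Dnmt3l, 3 of 40 at Zfp57 and 11 of 40 at Trim28 were called on day 4 in either direction, against 15.5% of all genes tested.

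For each gene whose highest and lowest group means differed by more than 2-fold, the 3 genes with the most similar profile over the 6 samples were found among the 11059 genes that averaged 100 or more, by Pearson's r of log2 values. With 6 samples in 2 days such values run high for many genes, and they are given as a description. Dnmt3b was closest to Pim2, Raver2 and Cgref1 (r from 0.9990 to 0.9999), Dnmt3l to Herc4, Zfp335 and Smc1b (0.9985 to 0.9988), and Dnmt3a to Supt6, Zbtb7b and Gstp1 (0.9934 to 0.9982). Tet1 was closest to Cbfa2t2, Def6 and Pvt1 (0.9984 to 0.9993), Tet2 to Nfatc2ip, Capn1 and Dse (0.9991 to 0.9996), and Tet3 to Tpm4, Zswim6 and Arl2bp (0.9912 to 0.9988). Zfp57 was closest to Rrm2, Atp9a and Arl6ip1, Uhrf1 to Cd97, Erlin1 and C030039L03Rik, and Trim28 to Slc25a20, Fxr1 and Zfp296. The profiles of Tet3 and Dnmt3a were the least common, with 89 and 98 genes above r = 0.95, against 1077 for Tet2 and 593 for Dnmt3b.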

How the data were processed

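RNA-seq values of 8 libraries were analysed. The authors trimmed the reads with Trim Galore, quantified transcripts of mm10 with Salmon, summed them to genes with tximport and normalized the counts with DESeq2. These normalized counts were deposited and are treated here as a signal, since whole reads could not be recovered from them. Annotation release and strand setting are not given in the sources used here. The 10 genes and the partner and marker lists were chosen with earlier results of these data known.

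Genes with a mean of at least 10 were tested by limma 3.58.1 under R 4.3.3 after adding 1 and taking log2 (lmFit and trended eBayes, two-sided, Benjamini-Hochberg over 15767 genes), with the WT pairs averaged, after they had been found to differ by less than the sampling noise. Fold changes are on this scale. The study's DEG rule, more than a 2-fold change with adjusted p below 0.05, was kept. All 10 genes are named. Of the partner lists, at most the 2 genes with the largest change among those called in each list and contrast are named. The code was tested on simulated data. Positions and lengths came from GENCODE vM21 (GRCm38), and promoter windows from RefSeq (GRCm38.p6), in which all 10 genes were found. Windows with more than 30 bases of annotated UTR are not shown. Python 3.11.15 and matplotlib 3.10.9 were also used.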

Additional observations from a re-analysis of the deposited data

Results flagged for a closer look

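For 7 genes the genotype difference itself differed between mESCs on day 0 and EBs on day 4, by the test of the genotype by day contrast (limma, 6 samples). The contrast, as the log2 fold change on day 4 minus that on day 0, was 1.74 for Dnmt3a (adjusted p = 0.00115), where the difference was -0.95 on day 0 and 0.79 on day 4. It was 1.72 for Tet1 (adjusted p = 0.00519), 1.71 for Dnmt3l (adjusted p = 0.000229) and 1.42 for Dnmt3b (adjusted p = 0.000144). It was -1.52 for Tet3 (adjusted p = 0.00166) and -1.25 for Zfp57 (adjusted p = 0.00474). For Trim28 it was 0.27 (adjusted p = 0.00694), under the fold of 2. Without the mean-variance trend, the adjusted p of the contrast was 0.0595 for Tet1 and 0.0579 for Zfp57. The WT change between the days rests on 1 sample per day. Summed pluripotency markers were higher in CTCF-K20R EBs (31170 to 31883) than in WT EBs (15298 to 15407). Pou5f1 held most of these sums and was 1.72-fold higher, Sox2 5.24-fold, Nanog 3.15-fold, Zfp42 2.25-fold and Esrrb 6.27-fold. The part of these marker differences in the contrasts was not tested.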

How the results depend on the processing

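Counts of the 10 genes called were recomputed with all 8 libraries as separate samples, pseudocounts of 0.1 and 10, no filter, a mean of at least 100, quantile normalization, equal totals, the libraries compared alone, no mean-variance trend, and each library left out. By the adjusted p alone the counts were 7 on day 4, 5 on day 0 and 10 between the days in CTCF-K20R cells, against 4, 1 and 6 by the DEG rule. On day 0 the count was 0 without the trend and with the libraries compared alone, where limma gave Tet3 adjusted p = 0.0529 and 0.0545. Leaving out each library gave 0 to 1 on day 0, with 0 without either CTCF-K20R EB library. The other counts stayed within 1.5 times. The replicate numbers did not pair the CTCF-K20R samples (correlation of deviations -0.044 over 11060 genes), and with a replicate block the counts were 4 on day 4, 1 on day 0, 6 in the contrast between days and 6 in CTCF-K20R cells, so the block changed no count. Among single genes, Dnmt1 on day 4 turned to -0.13 with quantile normalization, -0.09 with equal totals and ranged from -0.00 to 0.03 when each library was left out, and its contrast between days to -0.11 and -0.04 under both scalings. Uhrf1 on day 4 turned to -0.11 and -0.07. Calls higher made up 44.3% of day 4 calls as deposited, 54.6% after quantile normalization and 36.9% with equal totals, and 31.4%, 40.3% and 29% on day 0. Why calls were lost was not tested. With all 8 libraries as separate samples, 1348 genes in place of 598 were called on day 0. Depth did not limit the 10 genes, each far above the level of 3 reads.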
